A study of Homo sapiens with 12 samples.

Results

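Follistatin and the activin pathway were followed through 10 genes. FST, FSTL1 and FSTL3 encode follistatin and its relatives, INHBA, INHBB and INHBE encode activin and inhibin beta subunits, and ACVR1, ACVR1B, ACVR2A and ACVR2B encode receptors. A member was a probe set annotated with exactly 1 of these symbols, and where a gene has several the one with the highest mean over the 12 arrays. Each of the 10 genes had 1 such probe set, out of 18417 gene symbols and 29094 probe sets tested. The set was chosen by the difference between FST's estradiol responses with the 2 siRNA pools in these data, so that difference and the group levels behind it are described without a test. The averaged effects of estradiol and of knockdown, which are orthogonal contrasts to that difference, are tested for FST as for the other members.

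Activins are dimers of inhibin beta subunits that belong to the TGF-beta family. They bind a type II receptor (ACVR2A or ACVR2B), which recruits and activates a type I receptor such as ACVR1B, and the type I receptor phosphorylates SMAD2 and SMAD3. Follistatin is a secreted glycoprotein that wraps around activin and keeps it from its receptors, and in bone, activin and its antagonists are known to affect osteoblast and osteoclast activity.

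The cells were U2OS-ER-alpha, human osteosarcoma cells that carry estrogen receptor alpha, kept in medium with charcoal-stripped serum. All 12 cultures received 50 nM siRNA and were treated for 3 h, with 3 biological replicates, as labelled, in each of 4 groups. These were a pool against NCOA1, the gene of the coactivator SRC-1, with 17-B-estradiol (siSRC-1_E) or with ethanol vehicle (siSRC-1_V), and a non-targeting pool with 17-B-estradiol (NT_E) or with ethanol vehicle (NT_V). Whether the receptor-bearing line is 1 clone, and the dose of estradiol, are not given in the sources used here, and a single siRNA pool against NCOA1 was used. Values are log2 expression per probe set on Affymetrix Human Gene 1.0 ST arrays, and p-values measure the spread between the labelled replicates.

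NCOA1 read 6.79 to 6.92 log2 in siSRC-1_E and 5.62 to 6.18 in siSRC-1_V arrays, against 9.02 to 9.15 in NT_E and 8.72 to 8.83 in NT_V arrays. No array with SRC-1 siRNA reached the level of one with non-targeting siRNA. NCOA1 was 7.6-fold lower with SRC-1 siRNA under vehicle and 4.64-fold lower under estradiol. Estradiol was accompanied by a 2-fold higher NCOA1 level with SRC-1 siRNA (limma adjusted p = 0.00029). The difference of its estradiol responses, 0.71 log2, was not called (limma adjusted p = 0.442). What this unequal knockdown adds to differences between the treatments below was not tested. ESR1, which encodes the receptor, stood at 12.03 ± 0.02, 12.11 ± 0.03, 12.14 ± 0.04 and 12.16 ± 0.02 log2 in siSRC-1_E, siSRC-1_V, NT_E and NT_V (SD, n = 3). Of 7 measured osteoblast lineage markers, 6 read above the lower quartile of every array (5.17 to 5.24 log2) and IBSP, bone sialoprotein, on none. Of the other markers examined, all 4 epithelial ones, 1 of 3 endothelial and 2 of 3 immune ones read above it on all 12 arrays, while PTPRC, the pan-leukocyte marker, did so on none. All 10 members read above the lower quartile on all 12 arrays. The 4203 probe sets left out as controls were picked by their identifiers, and whether they measure transcripts was not tested. They had a mean deviation of 0.135 ± 0.042 log2 in siSRC-1_E and -0.091 ± 0.067 in siSRC-1_V, against 0.032 ± 0.036 in NT_E and -0.076 ± 0.043 in NT_V (SD, n = 3). Their part in the estradiol results was not tested. Calls of members, and of pathway genes between 2 groups, that are lost with this mean in the fit are given below. The mean was higher in the estradiol than in the vehicle arrays, so that fit cannot tell it from an estradiol effect. In bulk RNA, fewer cells that express a gene and less RNA per cell cannot be told apart.

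The start regions of FST and INHBA, the 2 members that estradiol raised on average, are shown for their sequence context. They are RefSeq sequences on GRCh38.p14, 250 bases before each gene's annotated start. FST lies on the plus strand at chr5:53480379-53480628 and INHBA on the minus strand at chr7:41703091-41703340. Capitals mark matches to any of the 7 motifs searched on both strands.
FST: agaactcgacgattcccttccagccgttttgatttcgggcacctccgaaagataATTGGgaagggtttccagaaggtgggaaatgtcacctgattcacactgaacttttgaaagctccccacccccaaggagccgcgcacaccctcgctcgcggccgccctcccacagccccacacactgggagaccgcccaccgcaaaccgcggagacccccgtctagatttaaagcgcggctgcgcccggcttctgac
INHBA: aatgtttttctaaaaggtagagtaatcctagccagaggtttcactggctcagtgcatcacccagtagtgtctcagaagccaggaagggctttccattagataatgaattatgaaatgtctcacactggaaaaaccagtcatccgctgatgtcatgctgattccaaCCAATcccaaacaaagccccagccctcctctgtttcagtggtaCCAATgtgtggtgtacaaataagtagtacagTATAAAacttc
The motifs were the estrogen response element (GGTCA and TGACC with any 3 bases between), its single arm GGTCA, which overlaps it, the AP-1 element TGACTCA, the cAMP response element TGACGTCA and its part TGACG, the TATA element TATAAA and CCAAT. FST had 1 CCAAT match, 196 bases before the start. INHBA had 2 CCAAT matches and 1 TATA match, the last 11 bases before the start. Over 35116 promoter windows of this length, the full estrogen response element was present in 0.0399%, its arm in 32.6%, the AP-1 element in 4.2%, the full and partial cAMP elements in 1.65% and 21.2%, the TATA element in 10.7% and CCAAT in 32.0%. Of the 9 members with a window, INHBB, ACVR1 and ACVR2B held the single estrogen response element arm and no member held the full element. The FST window had 60.0% G and C bases and the INHBA window 42.8%, against a median of 58.0% over all windows.

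Follistatin transcripts were higher with estradiol in both siRNA arms, and among vehicle cultures they were higher with SRC-1 siRNA. FST (probe set 8105302) read 10.35, 10.39 and 10.35 log2 in siSRC-1_E, 9.41, 9.28 and 9.44 in siSRC-1_V, 10.46, 10.40 and 10.33 in NT_E, and 8.91, 8.72 and 8.72 in NT_V arrays. The 6 estradiol arrays all lay above the 6 vehicle arrays. Means were 10.36 ± 0.02, 9.38 ± 0.08, 10.40 ± 0.07 and 8.78 ± 0.11 log2 in siSRC-1_E, siSRC-1_V, NT_E and NT_V (SD, n = 3). From lowest to highest the order was NT_V, siSRC-1_V, siSRC-1_E and NT_E. The 2 estradiol groups overlapped, whereas the 2 vehicle groups did not, which was also so for 18.4% of all probe sets. Neither difference was tested for FST.

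Estradiol was accompanied by a 1.97-fold higher FST level with SRC-1 siRNA (log2 difference 0.98, 95% interval 0.84 to 1.12) and a 3.06-fold higher level with non-targeting siRNA (1.61, 1.48 to 1.75). SRC-1 siRNA was accompanied by a log2 difference of -0.04 (-0.18 to 0.10) under estradiol and of 0.60 (0.46 to 0.73) under vehicle, the last a 1.51-fold higher level. The estradiol response with SRC-1 siRNA minus that with non-targeting siRNA was -0.64 ± 0.09 log2 (SE), with an interval from -0.83 to -0.44. It lay between -0.70 and -0.60 in the 12 fits that left out 1 array. These values chose the gene and carry no test. Their intervals and the range over the 12 fits only describe the arrays and give the difference no support. For all members, the difference of responses had a background of 0% called among all probe sets. On the log2 scale the smaller response with SRC-1 siRNA came with a higher vehicle level and a like estradiol level.

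Averaged over both siRNAs, FST rose 2.46-fold with estradiol (1.30 ± 0.04 log2, SE; adjusted p = 8.9e-09 by limma). Averaged over both treatments it rose 1.21-fold with SRC-1 siRNA (0.28 ± 0.04; limma adjusted p = 0.00467), an average of the 0.60 under vehicle and the -0.04 under estradiol. Across all tested probe sets 9.96% were called for averaged estradiol (6.11% as higher) and 5.1% for averaged knockdown (2.05% as higher and 3.05% as lower). Both FST calls held in the 12 fits that left out 1 array, with ranges of 1.27 to 1.33 and 0.26 to 0.31 log2. They also held with the control probe set mean in the fit, at 1.22 ± 0.10 (limma adjusted p = 0.000363) and 0.26 ± 0.05 (limma adjusted p = 0.0249). These averages are orthogonal to the difference that chose FST, but they come from the same group levels. FST and its tests were chosen with earlier results of these data known, so the p-values are not independent support for the choice of FST.

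**Figure D1:**
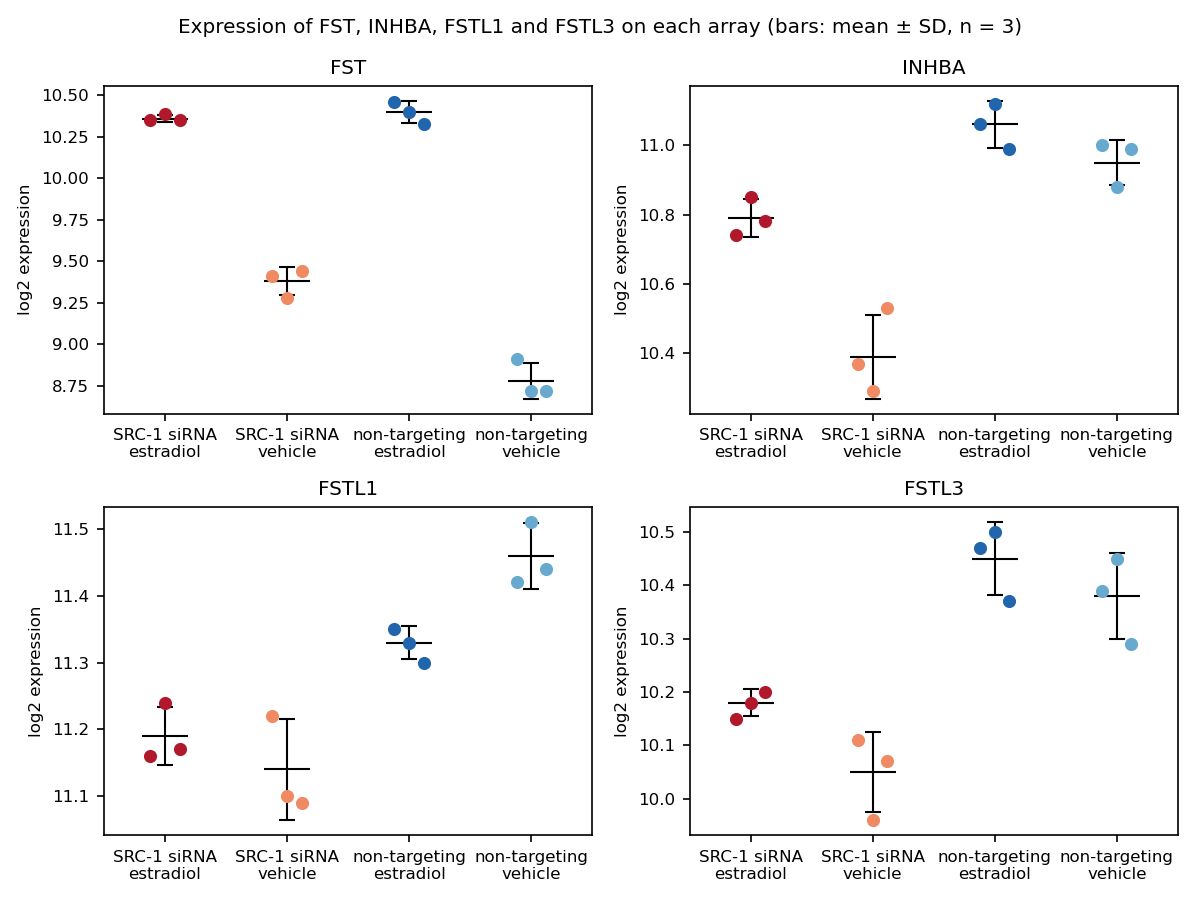
Log2 expression (y axis) of FST, INHBA, FSTL1 and FSTL3 on each of 12 arrays, by group (x axis); points are arrays, bars mean ± SD (n = 3), and each panel has its own y axis. FST is highest in both estradiol groups and lowest in NT_V, while INHBA is lowest in siSRC-1_V, where its 3 arrays read 10.29 to 10.53.

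INHBA, which encodes the beta A subunit of activin A, fell with SRC-1 siRNA and rose with estradiol in the SRC-1 siRNA arm. It read 10.74, 10.85 and 10.78 log2 in siSRC-1_E, 10.37, 10.29 and 10.53 in siSRC-1_V, 11.06, 11.12 and 10.99 in NT_E, and 11.00, 10.88 and 10.99 in NT_V arrays. All 6 arrays with SRC-1 siRNA lay below all 6 with non-targeting siRNA, and the siSRC-1_V arrays were the lowest. Under vehicle it fell 1.47-fold with SRC-1 siRNA (-0.56 ± 0.07 log2, SE; limma adjusted p = 0.00186). Under estradiol the groups again did not overlap, at -0.27 ± 0.07 log2, but this missed the threshold (limma adjusted p = 0.0714). It was called there without replicate 3 of siSRC-1_V (limma adjusted p = 0.046).

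With SRC-1 siRNA, estradiol raised INHBA 1.32-fold (0.40 ± 0.07 log2, SE; limma adjusted p = 0.00437). The same contrast in non-targeting arrays was 0.10 log2, with an interval from -0.04 to 0.25 (limma adjusted p = 0.551). The response with SRC-1 siRNA minus that with non-targeting siRNA was 0.29 log2 with an interval from 0.09 to 0.50, opposite in sign to that of FST, and it was not called (limma adjusted p = 0.582 over all probe sets). Averaged over both arms, INHBA rose 1.19-fold with estradiol (0.25 ± 0.05; limma adjusted p = 0.00578) and fell 1.33-fold with SRC-1 siRNA (-0.41 ± 0.05; limma adjusted p = 0.000471). With the control probe set mean in the fit, both estradiol calls of INHBA were lost, at 0.33 ± 0.15 log2 with SRC-1 siRNA (limma adjusted p = 0.535) and 0.20 ± 0.11 on average (limma adjusted p = 0.549). Over all probe sets, that fit called 106 for estradiol with SRC-1 siRNA and 212 for averaged estradiol, against 2001 and 2898 in the main fit. The INHBA knockdown calls under vehicle and on average held, at -0.56 and -0.43 log2.

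FSTL1 and FSTL3 are the follistatin relatives. FSTL3 binds activins much as follistatin does, whereas FSTL1 is a secreted SPARC-like glycoprotein with a follistatin domain. Both fell with SRC-1 siRNA under vehicle, in contrast to FST. FSTL1 read 11.16, 11.24 and 11.17 log2 in siSRC-1_E, 11.22, 11.10 and 11.09 in siSRC-1_V, 11.35, 11.33 and 11.30 in NT_E, and 11.42, 11.51 and 11.44 in NT_V arrays. Every array with SRC-1 siRNA lay below every array with non-targeting siRNA. Under vehicle it fell 1.25-fold with SRC-1 siRNA (-0.32 ± 0.05 log2, SE; limma adjusted p = 0.00895), and under estradiol the log2 difference was -0.14 ± 0.05 (limma adjusted p = 0.203). In a fit restricted to the vehicle arrays, the call under vehicle was lost (limma adjusted p = 0.106), as it was for FSTL3 (0.127).

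FSTL3 read 10.15, 10.18 and 10.20 log2 in siSRC-1_E, 10.11, 9.96 and 10.07 in siSRC-1_V, 10.47, 10.50 and 10.37 in NT_E, and 10.39, 10.45 and 10.29 in NT_V arrays. Its arrays with SRC-1 siRNA also all lay below those with non-targeting siRNA. It fell 1.26-fold under vehicle (-0.33 ± 0.06 log2, SE; limma adjusted p = 0.0157) and 1.20-fold under estradiol (-0.27 ± 0.06; limma adjusted p = 0.041). The call under vehicle was lost without replicate 1 of NT_V (limma adjusted p = 0.0767), replicate 2 of NT_V (0.0663) or replicate 2 of siSRC-1_V (0.066). The call under estradiol was lost in 7 of the 12 fits that left out 1 array, at limma adjusted p-values up to 0.146: without replicate 1 of NT_V, replicate 1 or 2 of NT_E, replicate 3 of siSRC-1_V or any siSRC-1_E array. It was also lost for FSTL3 with the control probe set mean in the fit (limma adjusted p = 0.218) and in a fit restricted to the estradiol arrays (0.089). Averaged over treatments, FSTL1 fell by 0.23 ± 0.03 and FSTL3 by 0.30 ± 0.04 log2 with SRC-1 siRNA (limma adjusted p = 0.00342 and 0.0015), and both averaged calls held in all 12 such fits. Estradiol did not change either gene past the threshold with SRC-1 or non-targeting siRNA, the log2 differences lying between -0.13 and 0.13.

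INHBB and INHBE encode the beta B and beta E subunits; INHBE, best known from liver, neighbours INHBC on its chromosome. INHBB ranged from 7.39 to 7.79 and INHBE from 5.82 to 6.28 log2 over the 12 arrays. Neither was called in any comparison. The largest INHBB difference was -0.18 log2 with estradiol and SRC-1 siRNA (interval -0.34 to -0.03; limma adjusted p = 0.151), and the largest for INHBE was -0.21 with SRC-1 siRNA under estradiol (-0.43 to 0.01; limma adjusted p = 0.35).

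The 4 receptor genes stayed within narrow ranges. ACVR2A and ACVR2B, the type II receptors that bind activin, spanned 8.12 to 8.37 and 7.04 to 7.38 log2 over the 12 arrays. ACVR1B, the main type I receptor of activin, spanned 8.70 to 8.96, and ACVR1, a type I receptor that mostly serves bone morphogenetic proteins, 8.31 to 8.65. None was called in any of the 4 comparisons between 2 groups, the smallest limma adjusted p being 0.165. The largest difference in size was 0.18 log2, and the 95% intervals of all 16 differences lay between -0.31 and 0.20 log2.

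Among the 9 members other than FST, estradiol with SRC-1 siRNA called 1, INHBA, which was higher, against 6.88% of all probe sets, 4.49% as higher. Estradiol with non-targeting siRNA called 0 of the 9 by limma, with 1 at an unadjusted p under 0.05 and 0 called with a trended and robust variance, against 2.73% of all probe sets. Knockdown under estradiol called 1, FSTL3, against 1.8% of all, 1.07% as lower. Knockdown under vehicle called 3, INHBA, FSTL1 and FSTL3, all lower, against 1.21% of all, 0.945% as lower. Groups did not overlap for 2, 3, 3 and 3 of the 9 members in these comparisons, in that order, against 25.8%, 21%, 22.3% and 18.4% of all probe sets. Medians over the 9 were -0.02, -0.04, -0.10 and -0.12 log2, against -0.02, -0.01, -0.01 and 0.00 over all probe sets. The difference of the estradiol responses called 0 of the 9 by limma and 0 with a trended and robust variance, with 2 at an unadjusted p under 0.05.

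**Figure D2:**
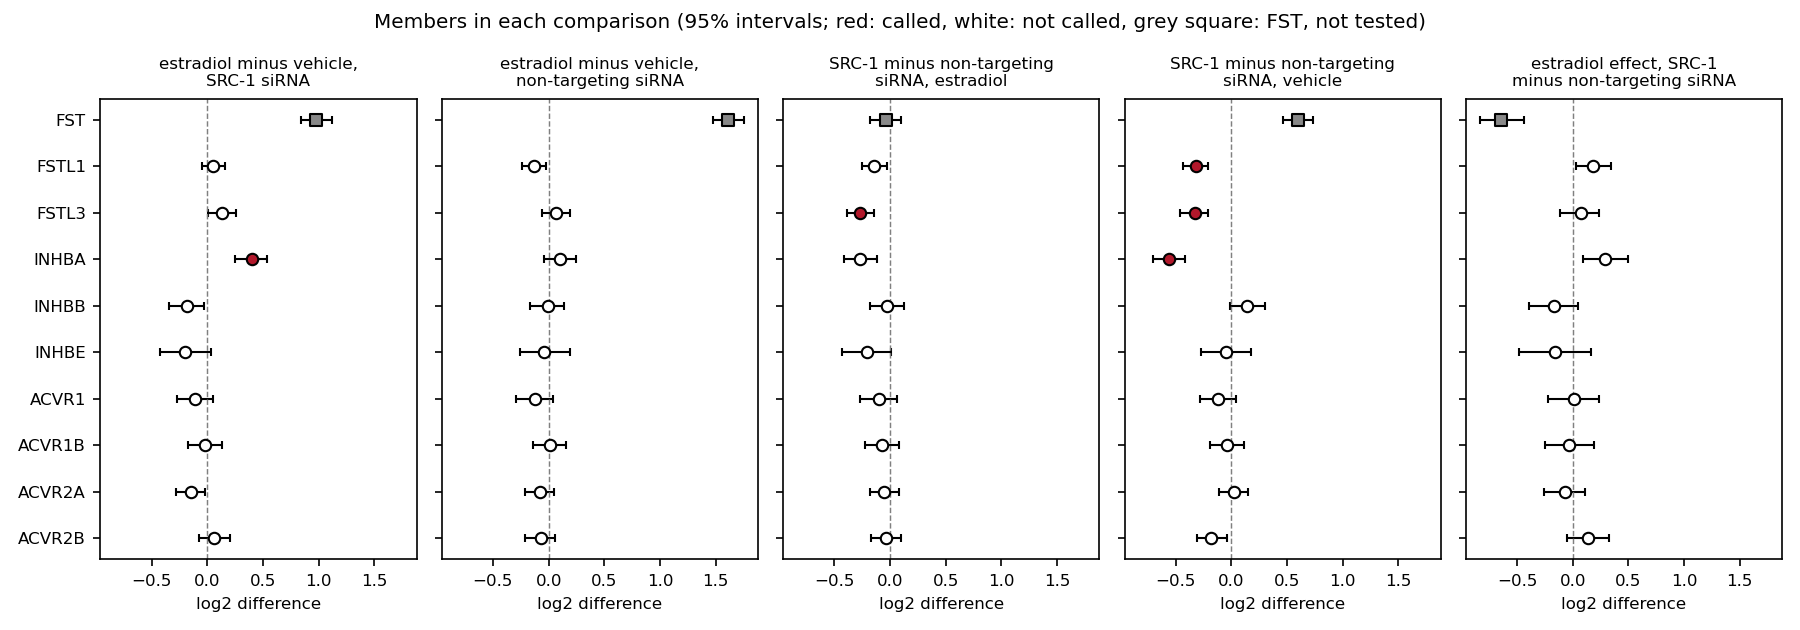
Log2 differences (x axis) of the 10 members (y axis) in the 4 comparisons between 2 groups and in the difference of the estradiol responses, with 95% intervals; red points were called by limma, white ones were not, and grey squares are FST, which was not tested here. FST lies to the right of 0 under estradiol in both arms, and INHBA, FSTL1 and FSTL3 lie to the left in the knockdown comparison under vehicle.

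Genes whose level followed FST over the 12 arrays were sought among 1213 probe sets with 1 symbol and an SD of at least 0.2 log2. These correlations are descriptive, since the 12 points share 4 groups and 1 treatment contrast dominates them. LOX, a lysyl oxidase that crosslinks collagen, was most like FST (Pearson r = 0.994). It had log2 differences of 0.79 with estradiol and SRC-1 siRNA and 1.19 with non-targeting siRNA, and of 0.07 with SRC-1 siRNA under estradiol and 0.47 under vehicle. BCL10, an adaptor of NF-kB signalling, and B4GALT1, a galactosyltransferase, followed at 0.979 each, SYNE3, a nesprin of the nuclear envelope, at 0.972, and FHL2, a LIM-domain cofactor, and MANEAL at 0.971 each. The most opposite were LRRC4C (-0.976), JAG1, a Notch ligand (-0.958), and DUSP10, a MAP kinase phosphatase (-0.944). Of the other members, INHBA had r = 0.24, FSTL3 0.10 and FSTL1 -0.39 with FST, and ACVR1 and ACVR2A -0.58 each.

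**Figure D3:**
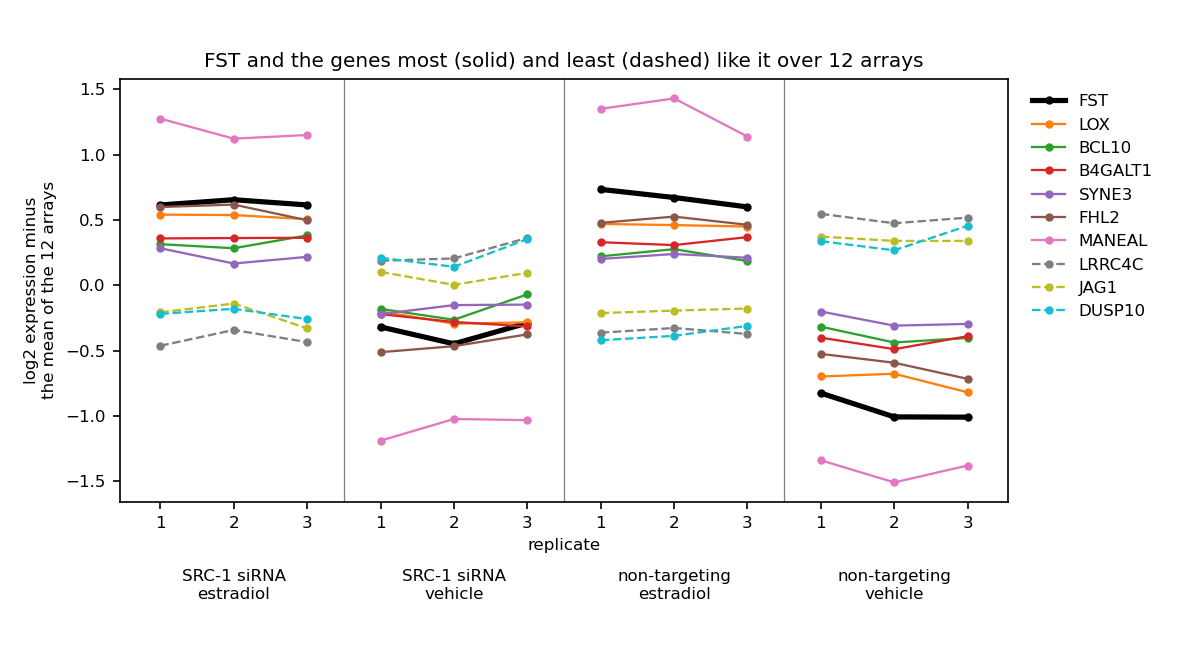
Log2 expression minus each gene's mean over 12 arrays (y axis) for FST (thick black), the 6 genes most like it (solid) and the 3 least like it (dashed), by array and group (x axis; lines join arrays of 1 group for legibility). FST and LOX are both lowest in NT_V, intermediate in siSRC-1_V and highest in the 2 estradiol groups.

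Further genes of the pathway were taken from 5 lists with 63 genes, of which 56 had a probe set with 1 symbol. The other 7 were not analysed here. Over the 56, estradiol with SRC-1 siRNA called 4 higher and 7 lower, estradiol with non-targeting siRNA 0 higher and 4 lower, knockdown under estradiol 1 higher and 3 lower, and knockdown under vehicle 1 higher and 2 lower. The shares called over all probe sets were 6.88%, 2.73%, 1.8% and 1.21% in that order. Medians of the 56 were -0.07, -0.03, -0.02 and -0.01 log2, against -0.02, -0.01, -0.01 and 0.00 over all probe sets. With the control probe set mean in the fit, 0 of the 56 were called for estradiol with SRC-1 siRNA and 1, SMAD6, with non-targeting siRNA. All other estradiol calls of these genes between 2 groups, given below, were thus lost in that fit. The calls of SMOC1 and SMURF2 for knockdown under estradiol were lost too (limma adjusted p = 0.142 and 0.111). Over all probe sets, that fit called 106 for estradiol with SRC-1 siRNA, 366 with non-targeting siRNA and 121 for knockdown under estradiol. The main fit called 2001, 793 and 524, so the loss was not particular to these genes.

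Among 9 other receptors and coreceptors, TGFBR2, ACVR1C and BMPR2 were called. TGFBR2, the type II receptor of TGF-beta itself, read 10.24, 10.41 and 10.32 log2 in siSRC-1_E, 10.85, 10.91 and 10.97 in siSRC-1_V, 10.91, 10.93 and 11.01 in NT_E, and 11.31, 11.29 and 11.23 in NT_V arrays. The siSRC-1_E arrays were lowest and the NT_V arrays highest, and siSRC-1_V and NT_E overlapped. It fell 1.5-fold with estradiol and SRC-1 siRNA and 1.25-fold with estradiol and non-targeting siRNA (limma adjusted p = 6.9e-05 and 0.00575). It fell 1.54-fold with SRC-1 siRNA under estradiol and 1.29-fold under vehicle (limma adjusted p = 0.000182 and 0.0069). In a fit restricted to the vehicle arrays, the last of these calls was lost (limma adjusted p = 0.0553). With the control probe set mean in the fit, TGFBR2 lost its estradiol calls with SRC-1 and non-targeting siRNA (limma adjusted p = 0.162 and 0.115). Of the 9 measured genes in this list, 1 was called lower in each comparison, TGFBR2. Over all probe sets, estradiol called 6.88% with SRC-1 siRNA and 2.73% with non-targeting siRNA, and knockdown 1.8% under estradiol and 1.21% under vehicle. Estradiol with SRC-1 siRNA also raised 2, ACVR1C, a type I receptor of nodal, and BMPR2, a type II receptor of bone morphogenetic proteins. They rose 1.29-fold and 1.24-fold (limma adjusted p = 0.00474 and 0.0211). The BMPR2 call was lost without replicate 2 or 3 of siSRC-1_V or replicate 1 or 3 of siSRC-1_E, at limma adjusted p-values of 0.0858, 0.0688, 0.0783 and 0.0769. With the control probe set mean in the fit, the BMPR2 difference turned to -0.02 log2. With non-targeting siRNA the BMPR2 difference was 0.26 log2 (limma adjusted p = 0.0808), and the difference of its 2 responses was 0.05 log2, with an interval from -0.17 to 0.26 (limma adjusted p = 0.948). For ACVR1C these values were 0.18 log2 (limma adjusted p = 0.211) and 0.19 log2 (limma adjusted p = 0.695). List medians were 0.04, 0.01, -0.02 and -0.08 log2 for estradiol with SRC-1 siRNA, estradiol with non-targeting siRNA, knockdown under estradiol and knockdown under vehicle.

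Among 19 SMAD proteins and regulators, estradiol with SRC-1 siRNA called 2 higher and 3 lower, estradiol with non-targeting siRNA 0 and 2, and each knockdown comparison 1 higher and 0 lower. The shares called over all probe sets were 6.88% and 2.73% for these estradiol comparisons, and 1.8% and 1.21% for knockdown under estradiol and under vehicle. Medians were -0.01, -0.01, 0.03 and 0.02 log2 for estradiol with SRC-1 siRNA, estradiol with non-targeting siRNA, knockdown under estradiol and knockdown under vehicle. TGIF1, a corepressor of SMAD2 and SMAD3, read 10.60, 10.57 and 10.32 log2 in siSRC-1_E against 10.95, 10.89 and 10.86 in siSRC-1_V, and 10.36, 10.14 and 10.46 in NT_E against 10.89, 10.86 and 10.86 in NT_V arrays. It fell 1.33-fold with estradiol and SRC-1 siRNA and 1.46-fold with non-targeting siRNA (limma adjusted p = 0.0153 and 0.00413), and the first call was lost without replicate 2 of siSRC-1_V (0.0522). Its other 4 probe sets had differences of -0.22 to -0.39 log2 with SRC-1 siRNA and -0.27 to -0.55 with non-targeting siRNA. SMAD6, an inhibitory SMAD, fell 1.13-fold with estradiol and SRC-1 siRNA and 1.22-fold with non-targeting siRNA (limma adjusted p = 0.0366 and 0.00313). The difference of these SMAD6 responses was not called (limma adjusted p = 0.734).

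SMAD3, which carries the activin signal, rose 1.17-fold and SMAD7, the inhibitory SMAD that activin and TGF-beta induce, 1.26-fold with estradiol and SRC-1 siRNA (limma adjusted p = 0.027 and 0.0304). Leaving out replicate 1 or 2 of siSRC-1_E ended either call (limma adjusted p = 0.0829 and 0.0782 for SMAD3, 0.0827 and 0.0862 for SMAD7), and replicate 2 or 3 of siSRC-1_V ended that of SMAD3 (0.0585 and 0.0955). With non-targeting siRNA the estradiol differences were 0.09 log2 for SMAD3 and 0.14 for SMAD7 (limma adjusted p = 0.531 and 0.491). The differences of their responses were not called (limma adjusted p = 0.734 and 0.767). SMURF2, a ubiquitin ligase that targets receptors and SMADs, rose 1.15-fold with SRC-1 siRNA under estradiol and 1.16-fold under vehicle (limma adjusted p = 0.025 and 0.0191). With estradiol and SRC-1 siRNA it fell 1.1-fold (-0.14 log2, limma adjusted p = 0.0492). With non-targeting siRNA this SMURF2 difference was -0.13 log2 (limma adjusted p = 0.145), and the difference of the responses was not called (limma adjusted p = 0.97). The SMURF2 call for knockdown under estradiol was lost without any siSRC-1_E array or replicate 2 or 3 of NT_E. That for knockdown under vehicle was lost without any NT_V array or replicate 2 or 3 of siSRC-1_V, with limma adjusted p-values up to 0.0924 and 0.0891.

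The target genes of activin and TGF-beta that were called all fell. Of 9 measured, estradiol with SRC-1 siRNA called 3, estradiol with non-targeting siRNA 1, and each knockdown comparison 1, where all probe sets gave 6.88%, 2.73%, and 1.8% (estradiol) and 1.21% (vehicle). TGFBI, an extracellular matrix protein induced by TGF-beta, read 7.76, 7.93 and 7.94 log2 in siSRC-1_E, 8.35, 8.33 and 8.44 in siSRC-1_V, 8.69, 8.73 and 8.71 in NT_E, and 8.96, 8.96 and 8.88 in NT_V arrays. No 2 of these groups overlapped. TGFBI fell 1.78-fold with SRC-1 siRNA under estradiol and 1.47-fold under vehicle, and 1.41-fold with estradiol and SRC-1 siRNA (limma adjusted p = 3.76e-05, 0.000677 and 0.000269). CCN2, a matricellular growth factor, fell 1.27-fold with estradiol and SRC-1 siRNA and 1.25-fold with estradiol and non-targeting siRNA (limma adjusted p = 0.00474 and 0.00935). LTBP2, a matrix protein of the latent TGF-beta binding family, fell 1.18-fold with estradiol and SRC-1 siRNA (limma adjusted p = 0.0393), a call lost in 9 of the 12 fits that left out 1 array, all but those without replicate 2 or 3 of NT_V or replicate 2 of siSRC-1_E, at limma adjusted p-values up to 0.12. With non-targeting siRNA the estradiol differences were -0.22 log2 for TGFBI and -0.17 for LTBP2 (limma adjusted p = 0.0628 and 0.23). The differences of their responses were not called (limma adjusted p = 0.534 and 0.905). The list's medians were -0.23, -0.14, -0.09 and -0.02 log2 for estradiol with SRC-1 siRNA, estradiol with non-targeting siRNA, knockdown under estradiol and knockdown under vehicle.

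Other ligands and other follistatin-domain genes gave few calls. Over all probe sets, estradiol called 6.88% with SRC-1 siRNA and 2.73% with non-targeting siRNA, and knockdown 1.8% under estradiol and 1.21% under vehicle. Of 8 other activin-class ligands and antagonists limma called 0 in each of the 4 comparisons, with 2, 1, 0 and 1 at an unadjusted p under 0.05 and medians of -0.11, -0.04, -0.03 and 0.04 log2 in the same order. GDF11, a ligand close to myostatin, averaged 7.86 ± 0.03 and 7.80 ± 0.03 log2 in siSRC-1_E and siSRC-1_V, against 7.87 ± 0.10 and 8.02 ± 0.01 in NT_E and NT_V (SD, n = 3). LEFTY1, an antagonist of nodal, averaged 7.44 ± 0.20, 7.80 ± 0.13, 7.71 ± 0.19 and 7.76 ± 0.24 in these groups. Of 11 follistatin-domain genes 1 was called, SMOC1, a matrix protein that fell 1.32-fold with SRC-1 siRNA under estradiol (limma adjusted p = 0.0162). That call was lost without any NT_E array or replicate 1 of siSRC-1_E, at limma adjusted p-values up to 0.07. Under vehicle the SMOC1 difference with SRC-1 siRNA was -0.33 log2, just short of a call (limma adjusted p = 0.0522). The difference of its responses was -0.07 log2 (limma adjusted p = 0.917), and averaged knockdown was called at -0.37 log2 (limma adjusted p = 0.00171). In the other 3 comparisons limma called 0 of these 11, with 2 for estradiol with SRC-1 siRNA, 0 for estradiol with non-targeting siRNA and 2 for knockdown under vehicle at an unadjusted p under 0.05. The list's medians were -0.09, -0.03, -0.08 and -0.02 log2 for estradiol with SRC-1 siRNA, estradiol with non-targeting siRNA, knockdown under estradiol and knockdown under vehicle. SPARC, the matrix protein osteonectin, averaged 12.54 ± 0.02, 12.54 ± 0.05, 12.51 ± 0.02 and 12.58 ± 0.02 log2 in siSRC-1_E, siSRC-1_V, NT_E and NT_V, and AGRN, the proteoglycan agrin, 8.93 ± 0.04, 9.02 ± 0.02, 9.09 ± 0.08 and 9.12 ± 0.05.

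**Figure D4:**
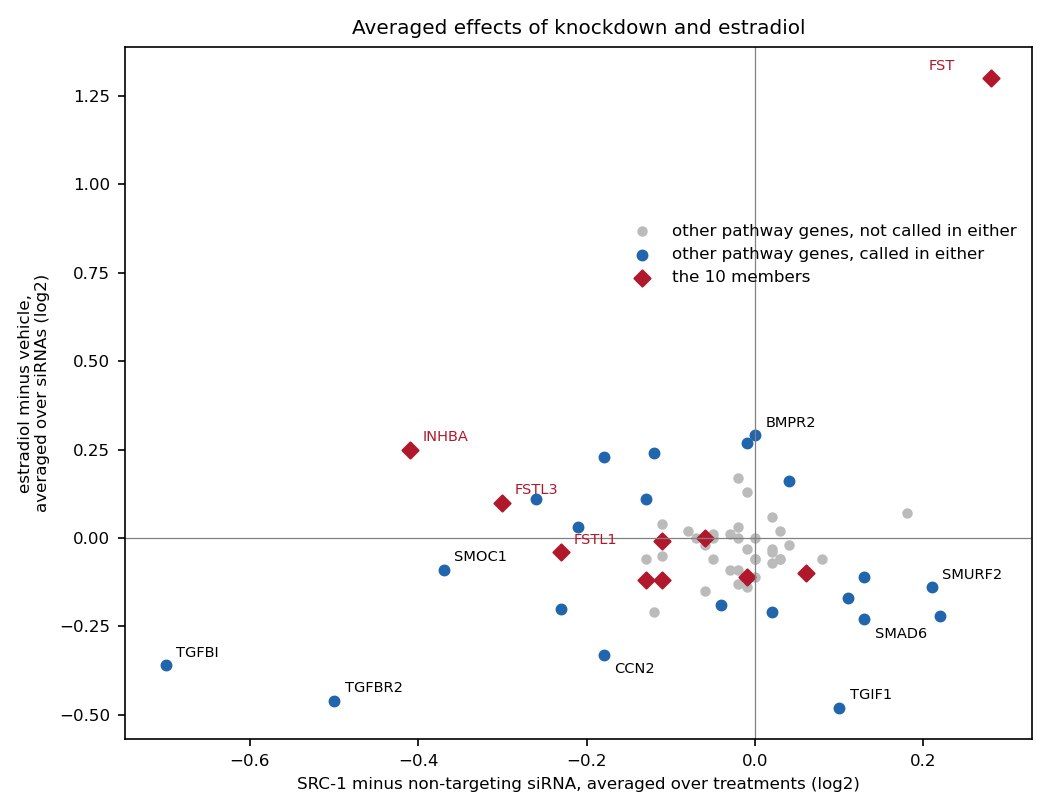
Averaged effect of estradiol (y axis, estradiol minus vehicle, log2) against averaged effect of knockdown (x axis, SRC-1 minus non-targeting siRNA, log2) for the 10 members (red diamonds) and 56 other pathway genes, of which 21 were called in either average (blue) and the rest in neither (grey). FST stands apart at 1.30 on the y axis, INHBA lies above 0 for estradiol and below 0 for knockdown, and TGFBI and TGFBR2 lie below 0 on both axes.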

How the data were processed

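The labels describe 12 samples of total RNA from U2OS-ER-alpha cells. Their deposited numbers are log2 expression of probe sets, which per the labels' design text the authors made from array image files with the affy package; they tested with limma. Versions, background correction and normalization are not given in the sources used here. No further normalization was applied. The table has 33297 probe sets, and 4203 whose identifiers precede those of all gene-annotated ones were treated as controls and not tested. No depth applies; the number of arrays limits precision (median SE of a difference between 2 groups 0.0711 log2). Array medians were 6.85 to 6.92, and no pair of arrays held identical values.

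The 29094 others entered 1 linear model with a mean for each group and all 12 arrays in limma 3.58.1, R 4.3.3 (3.15 prior and 8 residual degrees of freedom). Calls required p under 0.01 before, and under 0.05 after, Benjamini-Hochberg adjustment over all probe sets, as in the design text. Tests were two-sided and were tried on simulated data. Intervals are 95%. Named were all members, NCOA1, ESR1, up to 3 called genes per list and comparison (otherwise the 2 brightest), and the 6 genes most and 3 least like FST.

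The members, gene lists, tests and alternatives were chosen with earlier results of these data known. Replicate numbers come from the titles. Of 18 correlations between the deviations of same-numbered arrays from their group means, 5 exceeded 0.1, and the main fit did not pair samples. However, 10 of 12 arrays correlated best with an array of their own number. Whether same-numbered arrays share a batch was not tested, and results with the number as a block are given below. Alternatives were the control mean as a covariate, only the compared arrays, all probe sets, dropping the lowest 40% of them, centring on medians, renewed quantile scaling, a robust trended variance, the replicate number as a block, a stricter threshold and each array left out.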

Additional observations from a re-analysis of the deposited data

Results flagged for a closer look

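The probe sets left out as controls lay 0.226 log2 higher on average in siSRC-1_E than in siSRC-1_V arrays, a signal in values outside the tested set. Its part in the estradiol results was not tested beyond the fit with this mean as a covariate.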

How the results depend on the processing

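Averaged FST effects, INHBA, FSTL1 and FSTL3 under averaged knockdown and the NCOA1 knockdown under vehicle kept direction and call under every alternative run for them. With the replicate block, members called for knockdown under estradiol came to 0 in place of 1, as the FSTL3 call was lost (limma adjusted p = 0.0614), and no other count of members or pathway genes moved by over 1.5 times; all-probe-set counts with and without the block were 2308 and 2001, 807 and 793, 520 and 524, and 327 and 352 for estradiol with SRC-1 siRNA, estradiol with non-targeting siRNA, knockdown under estradiol and knockdown under vehicle. The same-numbered arrays correlated at -0.03 to 0.21, and 10 of 12 arrays correlated best with their own number. For knockdown under estradiol, 0 members were called with median centring, all probe sets tested, only the compared arrays, an adjusted p under 0.01 or the control covariate, and 2 with the lowest 40% left out or a trended and robust variance, INHBA being added. Only the compared arrays in the fit left 1 member (INHBA) of 3 for knockdown under vehicle, and 5 of 11 and 1 of 3 pathway genes for estradiol with SRC-1 siRNA and knockdown under vehicle. Leaving out the lowest 40% gave 7 pathway genes for estradiol with non-targeting siRNA (4 before), 7 for knockdown under vehicle and 8 for knockdown under estradiol (4 before). A trended and robust variance gave 8, 7 and 8. Over all probe sets that variance called 1130, 857 and 1246 in the same order, against 793, 352 and 524 in the main fit. An adjusted p under 0.01 left 4 pathway genes for estradiol with SRC-1 siRNA and 2 for knockdown under estradiol. The control covariate, which separates estradiol from vehicle arrays, left 0 members and 0 pathway genes for estradiol with SRC-1 siRNA, 1 pathway gene for estradiol with non-targeting siRNA, 2 for knockdown under estradiol and 1 member, FST, for averaged estradiol; BMPR2 reversed to -0.02 log2 and SMAD3 went to 0.41. With that covariate, 106 of all probe sets were called for estradiol with SRC-1 siRNA and 366 with non-targeting siRNA. It left 121 for knockdown under estradiol and 212 for averaged estradiol. Apart from the fewer arrays or probe sets in some of these fits, the cause was not tested. Leaving out 1 array gave 0 to 1 members for knockdown under estradiol, 5 to 12 pathway genes for estradiol with SRC-1 siRNA (5 or 6 without replicate 2 or 3 of siSRC-1_V or replicate 1 of siSRC-1_E) and 2 to 6 for knockdown under estradiol (2 without replicate 2 or 3 of NT_E or replicate 1 of siSRC-1_E). A second probe set per member could not be tried, as each member has 1. Signal over background was not measured.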

Other observations

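Averaged effects of pathway genes outside the comparisons between 2 groups were looked at after their values were seen. Of the 56 pathway genes, 16 were called for averaged estradiol (5 higher and 11 lower), 12 for averaged knockdown (4 higher and 8 lower) and 7 for both. Over all probe sets the shares were 9.96% for averaged estradiol (6.11% as higher) and 5.1% for averaged knockdown (2.05% as higher and 3.05% as lower). With the control probe set mean in the fit, averaged estradiol called 212 of all probe sets, against 2898 in the main fit. Whether the averaged calls of these pathway genes hold in that fit is not given here. SMAD1, which carries bone morphogenetic protein signals, had -0.22 log2 for estradiol and 0.22 for knockdown (limma adjusted p = 0.00934 and 0.0192), and SMAD6 -0.23 and 0.13 (0.000614 and 0.0405). SMURF1, a ubiquitin ligase related to SMURF2, fell by 0.21 log2 with knockdown (limma adjusted p = 0.00496), the direction opposite to SMURF2. The coreceptor TGFBR3 fell by 0.26 with knockdown (limma adjusted p = 0.024), and PMEPA1, a TGF-beta-induced inhibitor of SMAD signalling, rose by 0.23 with estradiol (limma adjusted p = 0.019).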
